A study of Mus musculus with 32 samples.

Results

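Liver transcript levels of 9 genes tied to hepatic stellate cell activation and TGF-β signalling, *Tgfb1*, *Tgfb2*, *Tgfb3*, *Ctgf*, *Pdgfra*, *Pdgfrb*, *Acta2*, *Tagln* and *Des*, were followed across all conditions of the study. They were taken by gene symbol from the 54532 genes of the count table, and all 9 passed the filter on low counts in each comparison. RNA from frozen liver lobes of C57BL/6 mice was sequenced at 12 weeks of age, with 4 mice in each of 8 groups defined by sex, genotype and diet. WT and *Cyp2c70* KO mice of each sex received chow or chow containing 0.006% SC-435, which gave about 11 mg/kg/day. The KO mice carried a germline CRISPR-Cas9 deletion in *Cyp2c70*, which encodes the enzyme that makes muricholic acids, and descended from a single founder and so form 1 line. SC-435 blocks the ileal transporter through which bile acids return from the gut to the liver. The labels place the diet switch 3 weeks after weaning. The scheme in the study's publication shows the switch at weaning, and its text gives 8 weeks of feeding. The labels and the publication differ, so the length of treatment is uncertain here. Every group shared strain, age and tissue.

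Hepatic stellate cells store vitamin A in the healthy liver and, when activated during chronic injury, become contractile cells that deposit collagen. TGF-β, released by several liver cell types and stored in a latent form, and PDGF, which acts through receptors that stellate cells carry, are the best known drivers of that change. Desmin is used as a mark of stellate cells in rodents, though it is not confined to them. Smooth muscle actin is also made by the muscle layer of portal vessels and by portal fibroblasts. These samples were bulk tissue, so a change in the number of cells of a type and a change in RNA per cell cannot be told apart for any gene below.

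Library totals lay between 36476021 and 44771350 reads on genes. Male WT chow replicate 1 stood apart from the other libraries, with a TMM scaling factor of 0.639 against 0.894 to 1.28 elsewhere and a mean correlation of 0.918 with its own group against 0.962 to 0.989. Its effect on each male comparison with WT mice on chow is given beside the result. Reads on *Cyp2c70* followed the genotype labels, with 149 to 187 CPM (counts scaled to library size after TMM normalization) in KO mice on chow and 522 to 851 CPM in WT mice on chow. Stellate cell transcripts were present in every group: *Lrat*, which esterifies vitamin A, had 120 to 2303 counts per library, and *Reln*, another stellate cell gene, had 1204 to 8143.

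The RefSeq promoter windows of GRCm38.p6, 250 bases before to 50 bases after the annotated start, were available for 5 of the 9 genes (*Tgfb1*, *Tgfb2*, *Pdgfra*, *Acta2* and *Des*). Those of *Tgfb1*, *Tgfb2* and *Acta2* are shown because these genes contrast: an abundant ligand with a small genotype difference in females on chow, a rare ligand of the same family with a larger one, and an actin that varied between mice of 1 group. Capitals mark matches to GGGCGG or its reverse complement CCGCCC (GC box), to TATAAA on the gene's own strand (TATA box) and to GGAATG or its reverse complement CATTCC (TEAD motif).
*Tgfb1*, chr7:25686752-25687051, plus strand: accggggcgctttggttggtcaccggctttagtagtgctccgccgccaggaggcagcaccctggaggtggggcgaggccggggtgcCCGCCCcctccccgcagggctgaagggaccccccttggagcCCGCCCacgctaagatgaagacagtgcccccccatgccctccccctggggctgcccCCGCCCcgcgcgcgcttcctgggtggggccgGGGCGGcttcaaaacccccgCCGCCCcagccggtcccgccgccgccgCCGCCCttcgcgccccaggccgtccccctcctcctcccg
*Tgfb2*, chr1:186705940-186706239, minus strand: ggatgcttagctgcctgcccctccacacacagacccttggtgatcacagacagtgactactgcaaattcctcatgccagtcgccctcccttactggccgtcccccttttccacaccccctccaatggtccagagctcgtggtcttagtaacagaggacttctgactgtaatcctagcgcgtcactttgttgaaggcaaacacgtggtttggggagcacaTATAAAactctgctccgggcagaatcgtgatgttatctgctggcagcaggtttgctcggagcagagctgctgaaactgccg
*Acta2*, chr19:34255324-34255623, minus strand: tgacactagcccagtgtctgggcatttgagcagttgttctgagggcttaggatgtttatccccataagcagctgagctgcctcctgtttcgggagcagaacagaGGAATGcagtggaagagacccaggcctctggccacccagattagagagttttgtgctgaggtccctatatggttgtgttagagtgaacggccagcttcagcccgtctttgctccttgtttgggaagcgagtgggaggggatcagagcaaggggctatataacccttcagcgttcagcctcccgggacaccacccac
The *Tgfb1* window held 6 GC boxes, a motif found in 35.7% of the 32851 windows, and a GC content of 77.0% against a median of 52.7%. The *Tgfb2* window held a TATA box that began 31 bases before the annotated start, a motif found in 8.32% of windows, and no GC box. The *Acta2* window held a TEAD motif 146 bases before the start, found in 14.7% of windows. The *Des* window held 2 GC boxes, and none of the motifs searched was in the *Pdgfra* window. The strict CArG box, with only A or T between CC and GG, is a narrow form of the element that serum response factor binds. It was in none of the 5 windows and in 1.63% of all windows. The *Acta2* window does hold ccctatatgg and ccttgtttgg, which depart from that form by a C and by a G in place of an A or T. Looser forms were not searched. The palindromic SMAD site, GTCT joined to AGAC, was in none of the 5 windows and in 0.213% of all windows. A match describes the letters only.

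In female mice on chow, 5 of the 9 genes were higher in KO than in WT livers and none was lower (edgeR quasi-likelihood test, Benjamini-Hochberg adjusted p under 0.05), where 9.83% of the 16205 genes tested were higher and 14.9% differed in either direction. These were both PDGF receptors and the 3 TGF-β ligands, while *Ctgf*, *Acta2*, *Tagln* and *Des* did not pass. *Pdgfrb* and *Tgfb2* also exceeded a log2 fold change of 1, as did 5.67% of genes in that direction. Leaving out 1 mouse at a time left between 1 and 5 of the 9, the lowest count coming without KO chow replicate 2 or without KO chow replicate 3, and *Pdgfrb* passed in all 8 such fits. The median log2 fold change was 0.41 over the 9 genes and −0.02 over all genes tested.

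In male mice on chow, none of the 9 passed between KO and WT, where 1.08% of 15862 genes differed, although 5 had an unadjusted p under 0.05 (15.4% of all genes) and DESeq2 called 4 (6.82% of all genes). Without WT chow replicate 1, the library that stood apart, 5 were higher in KO (*Tgfb2*, *Tgfb3*, *Ctgf*, *Pdgfrb* and *Des*), where 4.38% of 16390 genes were higher. For none of the 9 genes did a difference in genotype effect between the sexes pass, in an interaction test that called 0.0235% of 17026 genes. *Ctgf* alone had an unadjusted interaction p under 0.05 (0.036, adjusted p = 0.744), as did 6.26% of all genes, and DESeq2 called none of the 9 and 0.452% of all genes.

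SC-435 lowered 4 of the 9 genes in male KO mice (*Pdgfra*, *Pdgfrb*, *Tgfb2* and *Des*), where 8.36% of 15984 genes were lower and 17.2% differed in either direction. The log2 fold change of *Pdgfra*, *Pdgfrb* and *Tgfb2* was beyond −1, as was that of 4.57% of genes. The count was between 1 and 5 when 1 mouse was left out, with 1 without male KO SC-435 replicate 4. In female KO mice only *Tgfb1* was lower on SC-435, where 9.23% of 16332 genes were lower and 17.8% differed, and DESeq2 called 23.1% of all genes and 4 of the 9, with *Tgfb1*, *Pdgfra* and *Pdgfrb* lower and *Ctgf* higher. Without female KO chow replicate 4 the count also rose to 4.

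In WT mice, none of the 9 genes passed for SC-435 in either sex, where 4.28% of 15739 genes differed in females and 0.0394% of 15211 in males. An unadjusted p under 0.05 was found for 3 of the 9 in females and 1 in males (19.8% and 6.12% of all genes). DESeq2 called 1 in each sex, *Pdgfrb* in females and *Acta2* in males (9.02% and 1.35% of all genes). KO mice on SC-435 still differed from WT mice on chow in females for *Pdgfrb* and *Tgfb2*, both higher, where 8.73% of 15881 genes were higher and 16% differed. In males none of the 9 passed in that comparison, where 0.208% of 15395 genes differed, 1 had an unadjusted p under 0.05 (8.24% of all genes), and DESeq2 called none of the 9 and 2.68% of all genes. The comparisons within a sex share the WT mice on chow or the KO mice on chow, so their calls are not independent of each other.

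**Figure D1:**
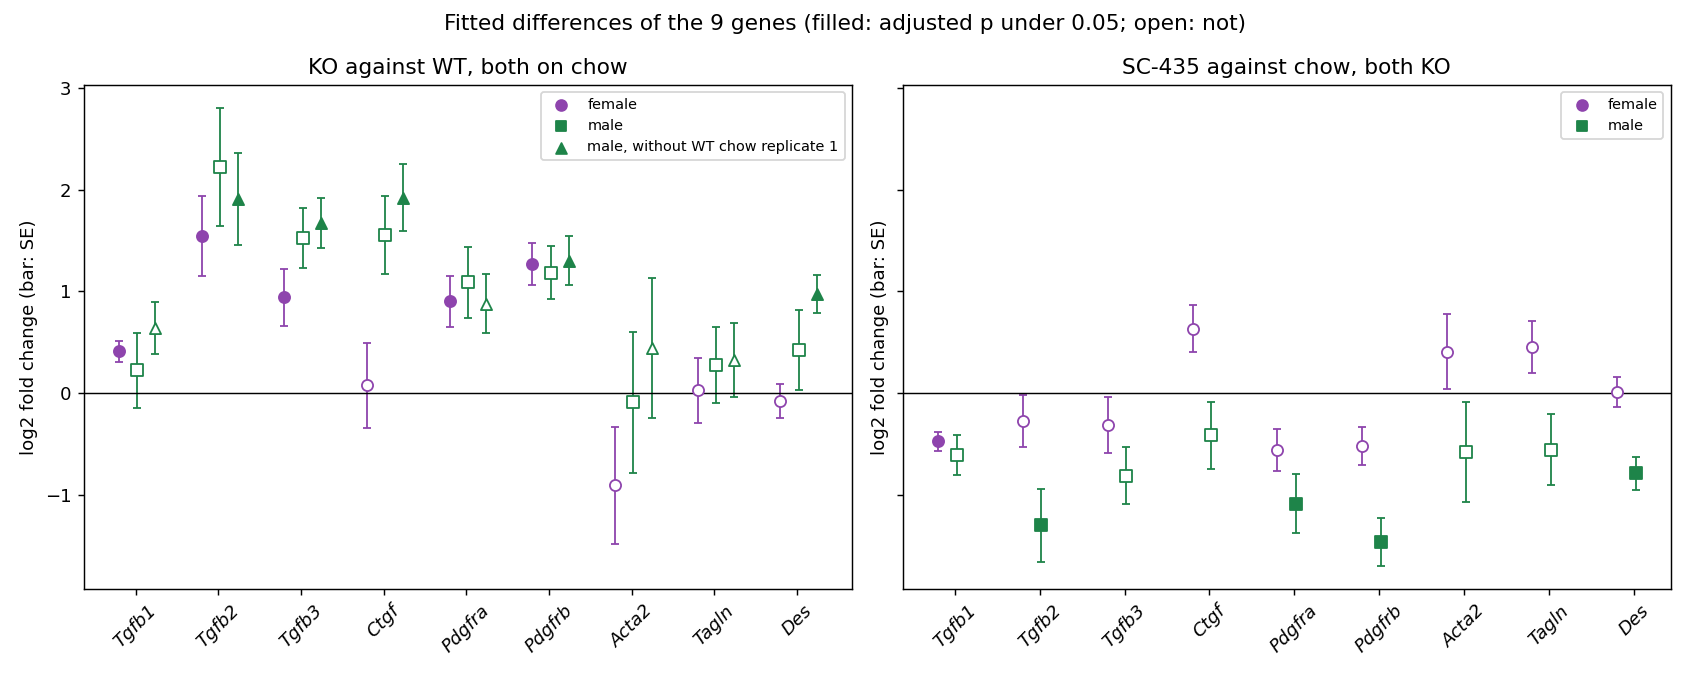
Fitted log2 fold changes of the 9 genes (y axis, bars are SE) between KO and WT mice on chow (left) and between SC-435 and chow in KO mice (right), for females (circles) and males (squares), with triangles for males without WT chow replicate 1. Filled symbols have an adjusted p under 0.05. On the left 5 female symbols are filled and no male square is, while 5 triangles are. On the right the filled symbols all lie below 0.

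*Tgfb1*, the TGF-β isoform most often linked to liver fibrosis (ENSMUSG00000002603, chromosome 7, 25687002 to 25705077), was the most abundant of the 3 ligands per unit length, with a median of 2.84 CPM per kilobase over the 32 mice against 0.428 for *Tgfb3* and 0.146 for *Tgfb2*. In female WT mice on chow it was at 17.9, 15.3, 16.3 and 14.3 CPM, and in female KO mice on chow at 19.9, 23.2, 21.3 and 19.1 CPM. All KO mice were above all WT mice, and the difference was small, 1.33-fold (log2 0.41 ± 0.10 SE, adjusted p = 0.0263). With SC-435 the female KO mice stood at 14.0, 14.3, 16.0 and 16.5 CPM. Every one of them was below every KO mouse on chow, a 1.39-fold decrease (log2 −0.48 ± 0.09, adjusted p = 0.00995), and this call held in all 8 fits that left out 1 mouse and in all 8 other settings. The increase with genotype was less stable, since it passed in 3 of 8 fits that left out a mouse.

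In males the *Tgfb1* level of WT mice on chow was 30.2, 10.4, 11.5 and 15.9 CPM, the first value coming from the library that stood apart. KO mice on chow had 13.4, 15.8, 21.6 and 25.7 CPM. The groups overlapped, and the log2 fold change was 0.22 ± 0.37 with all mice and 0.65 ± 0.26 without that library (adjusted p = 0.810 and 0.148). On SC-435 male KO mice had 11.4, 12.4, 13.9 and 13.8 CPM, a log2 fold change of −0.61 ± 0.20 that did not pass (adjusted p = 0.0597), although DESeq2 called it. WT mice on SC-435 lay between 9.95 and 12.7 CPM in males and between 11.6 and 15.3 CPM in females.

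*Tgfb2*, a ligand that needs the co-receptor betaglycan for efficient receptor binding (ENSMUSG00000039239, chromosome 1, 186622792 to 186705989), was scarce, with 3 to 224 counts per library. Female WT mice on chow had 0.236, 0.827, 0.860 and 0.549 CPM and female KO mice on chow 1.47, 2.17, 2.42 and 1.09 CPM. The groups did not overlap, and KO livers were 2.93-fold higher (log2 1.55 ± 0.39, adjusted p = 0.0264). On SC-435 female KO mice had 1.34, 1.57, 1.39 and 1.70 CPM, inside the range of KO mice on chow (log2 −0.27 ± 0.26, adjusted p = 0.495). They remained above all WT mice on chow, by 2.43-fold (log2 1.28 ± 0.33, adjusted p = 0.0230), in 5 of 8 fits that left out a mouse.

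Male WT mice on chow had 0.114, 0.466, 0.551 and 0.953 CPM of *Tgfb2*, the lowest in the library that stood apart, with 3 counts. Male KO mice on chow had 1.46, 1.63, 2.54 and 3.95 CPM, all above WT. The log2 fold change was 2.23 ± 0.58 and did not pass (adjusted p = 0.112), and without that library it was 1.91 ± 0.45 and passed (adjusted p = 0.0440). On SC-435 male KO mice fell to 1.13, 1.32, 0.727 and 0.802 CPM, below every KO mouse on chow (log2 −1.30 ± 0.36, 2.47-fold, adjusted p = 0.0388). This call was lost in 6 of the 8 fits that left out a mouse. The SC-435 effect on *Tgfb2* in KO mice differed between the sexes by a log2 of 1.01 ± 0.45 (unadjusted p = 0.041, adjusted p = 0.375), which does not pass.

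*Tgfb3*, the third isoform (ENSMUSG00000021253, chromosome 12, 86056745 to 86079041), had 17 to 177 counts per library. Female WT mice on chow had 1.65, 1.44, 1.13 and 1.22 CPM and female KO mice on chow 2.08, 3.39, 3.26 and 1.53 CPM. All KO mice but replicate 4 were above all WT mice (log2 0.94 ± 0.28, adjusted p = 0.0470). This was the least stable of the 5 female calls, passing in 1 of 8 fits that left out a mouse. Male WT mice on chow had 1.14, 0.713, 0.651 and 0.953 CPM and male KO mice on chow 2.42, 2.23, 2.17 and 2.82 CPM. Those groups did not overlap, with a log2 fold change of 1.53 ± 0.30 just short of the threshold (adjusted p = 0.0503) that passed without the library that stood apart (1.68 ± 0.24, adjusted p = 0.0137). On SC-435 male KO mice had 1.77, 1.69, 1.45 and 0.702 CPM, below all KO mice on chow (log2 −0.81 ± 0.28, adjusted p = 0.0739), and female KO mice had 2.63, 2.03, 2.24 and 1.48 CPM, overlapping KO mice on chow (log2 −0.32 ± 0.28, adjusted p = 0.461).

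As a share of the summed length-scaled level of the 3 ligands, *Tgfb1* made up 84.2% to 87.0% in female WT mice on chow and 75.4% to 85.5% in female KO mice on chow. In males it made up 87.6% to 94.4% in WT and 73.3% to 79.9% in KO mice on chow, without overlap. The *Tgfb2* share was 0.999% to 3.999% in female WT and 4.26% to 7.44% in female KO mice on chow. It was 0.310% to 4.57% in male WT and 6.91% to 10.3% in male KO mice on chow. Both the lowest *Tgfb2* and the highest *Tgfb1* share of male WT mice came from the library that stood apart, without which the male WT ranges were 3.41% to 4.57% and 87.6% to 88.8%. On SC-435 the *Tgfb2* share was 5.89% to 7.34% in female KO mice and 3.80% to 7.14% in male KO mice. These shares rest on few reads of *Tgfb2* and are given without a test.

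**Figure D2:**
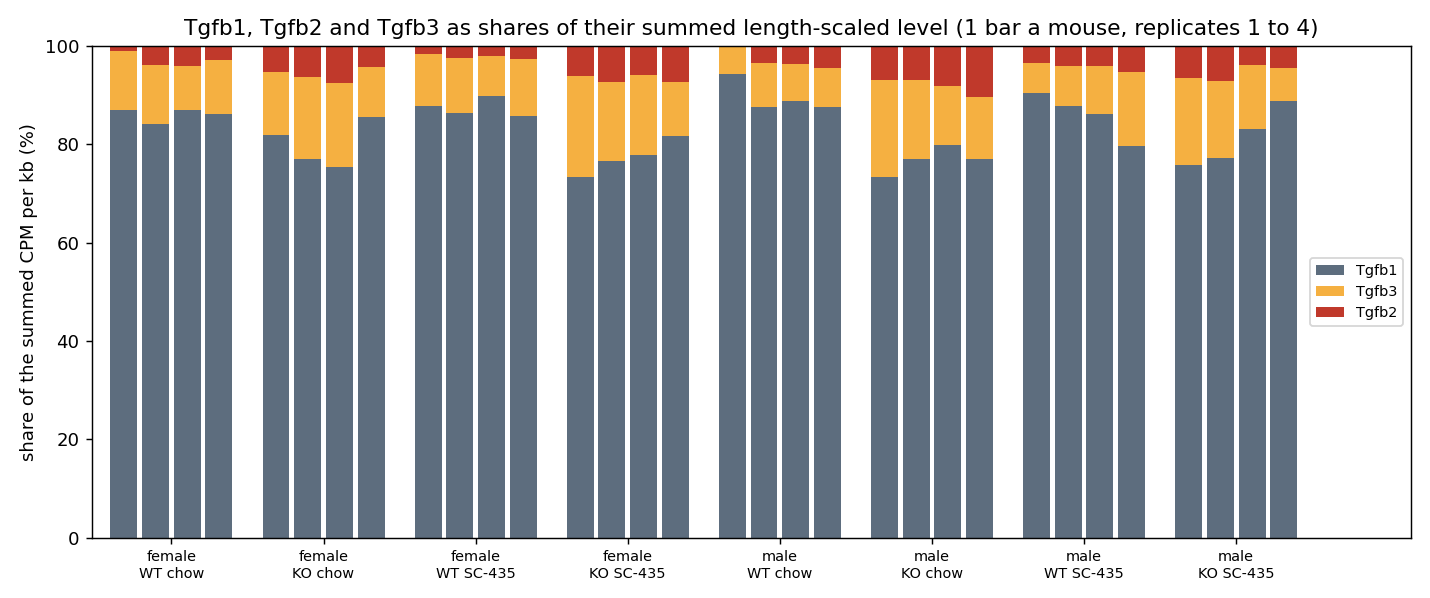
Shares of *Tgfb1* (grey), *Tgfb3* (yellow) and *Tgfb2* (red) in their summed CPM per kilobase (y axis, percent), 1 bar for each mouse, grouped by sex, genotype and diet. *Tgfb1* is the largest share in all 32 mice, and the *Tgfb2* share spans 4.26% to 10.3% in KO mice on chow and 0.310% to 4.57% in WT mice on chow, the 0.310% coming from male WT chow replicate 1.

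*Ctgf*, also called *Ccn2*, encodes a matricellular protein induced by TGF-β and by YAP (ENSMUSG00000019997, chromosome 10, 24595442 to 24598683). In males it was at 9.07, 2.77, 5.03 and 4.71 CPM in WT mice on chow and at 15.4, 23.96, 12.7 and 9.91 CPM in KO mice on chow. All KO mice were above all WT mice. The log2 fold change of 1.56 ± 0.39 did not pass with all mice (adjusted p = 0.0991) and passed without the library that stood apart (1.92 ± 0.33, adjusted p = 0.0189). SC-435 left male KO mice at 11.2, 5.99, 17.1 and 12.98 CPM, overlapping KO mice on chow (log2 −0.42 ± 0.33, adjusted p = 0.396). Against WT mice on chow those mice were higher by a log2 of 1.12 ± 0.40 (adjusted p = 0.469), or of 1.49 ± 0.33 without that library (adjusted p = 0.0209).

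In females *Ctgf* passed in none of the comparisons by edgeR with all mice. WT mice on chow had 7.06, 5.46, 9.46 and 1.67 CPM and KO mice on chow 4.34, 7.38, 4.56 and 8.29 CPM, within the WT range (log2 0.07 ± 0.42, adjusted p = 0.927). KO mice on SC-435 had 6.85, 11.3, 10.48 and 9.83 CPM, and 3 of the 4 were above all KO mice on chow (log2 0.63 ± 0.23, adjusted p = 0.0843). DESeq2 called *Ctgf* higher there (adjusted p = 0.0336), as did edgeR with a replicate block (adjusted p = 0.0466) and without KO chow replicate 4 (adjusted p = 0.0210). WT mice on SC-435 had 7.73, 7.86, 1.42 and 1.69 CPM, a high and a low pair. The 3 genes whose log2 CPM moved most closely with *Ctgf* within groups were *Tsc22d3*, *Ddit4* and *Arrdc2* (r = 0.886, 0.861 and 0.859 over 32 mice), and the first is a well known glucocorticoid target.

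*Pdgfrb*, the receptor that carries the PDGF growth signal in stellate cells (ENSMUSG00000024620, chromosome 18, 61045150 to 61085061), gave the most stable calls of the 9 genes. Female WT mice on chow had 13.05, 10.2, 11.4 and 14.7 CPM and female KO mice on chow 28.9, 34.3, 35.5 and 18.1 CPM. The groups did not overlap, and KO livers were 2.41-fold higher (log2 1.27 ± 0.21, adjusted p = 0.00441). On SC-435 female KO mice had 22.1, 19.4, 18.2 and 22.7 CPM. That range lay inside that of KO mice on chow, and the log2 difference of −0.52 ± 0.19 did not pass (adjusted p = 0.0783), although 5 of the 8 other settings called it. The same mice stayed 1.68-fold above WT mice on chow with no overlap (log2 0.75 ± 0.12, adjusted p = 0.00290), and this held in all 8 fits that left out a mouse.

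In males *Pdgfrb* was at 13.1, 9.62, 9.41 and 9.66 CPM in WT mice on chow and at 16.7, 16.9, 28.3 and 29.8 CPM in KO mice on chow. The groups did not overlap. The log2 fold change was 1.19 ± 0.26 (adjusted p = 0.0776), and 1.30 ± 0.24 without the library that stood apart (adjusted p = 0.0239). On SC-435 male KO mice had 8.80, 9.90, 9.21 and 6.09 CPM, all below KO mice on chow, a 2.76-fold decrease (log2 −1.47 ± 0.24, adjusted p = 0.00594) that held in all 8 fits that left out a mouse. Those mice did not differ by test from WT mice on chow (log2 −0.31 ± 0.20, adjusted p = 0.776). The SC-435 effect in KO mice was −0.52 in females and −1.47 in males, a log2 difference of 0.92 ± 0.32 with an unadjusted p of 0.010 and an adjusted p of 0.241, in an interaction test that called 0.211% of 17069 genes and none of the 9. In that test 5 of the 9 had an unadjusted p under 0.05 (12.5% of all genes), and DESeq2 called 1, *Des* (1.99% of all genes).

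*Pdgfra*, the other PDGF receptor, which portal fibroblasts also carry (ENSMUSG00000029231, chromosome 5, 75152292 to 75198215), was at 5.28, 6.02, 7.57 and 9.31 CPM in female WT mice on chow and at 13.5, 16.8, 13.9 and 7.56 CPM in female KO mice on chow. All KO mice but replicate 4 were above all WT mice (log2 0.90 ± 0.25, adjusted p = 0.0361). The call was kept in 2 of the 8 fits that left out a mouse. Male KO mice on chow had 6.76, 8.32, 11.8 and 16.0 CPM and male WT mice on chow 2.88, 6.30, 5.53 and 6.18 CPM, without overlap (log2 1.09 ± 0.35, adjusted p = 0.186, or 0.88 ± 0.29 and 0.102 without the library that stood apart). On SC-435 male KO mice had 4.57, 7.09, 5.14 and 3.83 CPM, a 2.13-fold decrease (log2 −1.09 ± 0.29, adjusted p = 0.0333) with 3 of 4 mice below all KO mice on chow. That call was kept in 3 of the 8 fits that left out a mouse. Female KO mice on SC-435 had 10.2, 8.49, 8.34 and 8.49 CPM, a range inside that on chow (log2 −0.56 ± 0.21, adjusted p = 0.0872).

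Per kilobase, *Pdgfrb* was 3.73 to 4.68 times *Pdgfra* in female KO mice on chow and 2.76 to 4.52 times in female WT mice on chow. In male KO mice the ratio was 3.41 to 4.52 on chow and 2.56 to 3.52 on SC-435. The ratio of 8.31 in male WT chow replicate 1 was the highest of all mice, since that library held few *Pdgfra* reads (76, against 221 to 240 in the rest of its group).

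**Figure D3:**
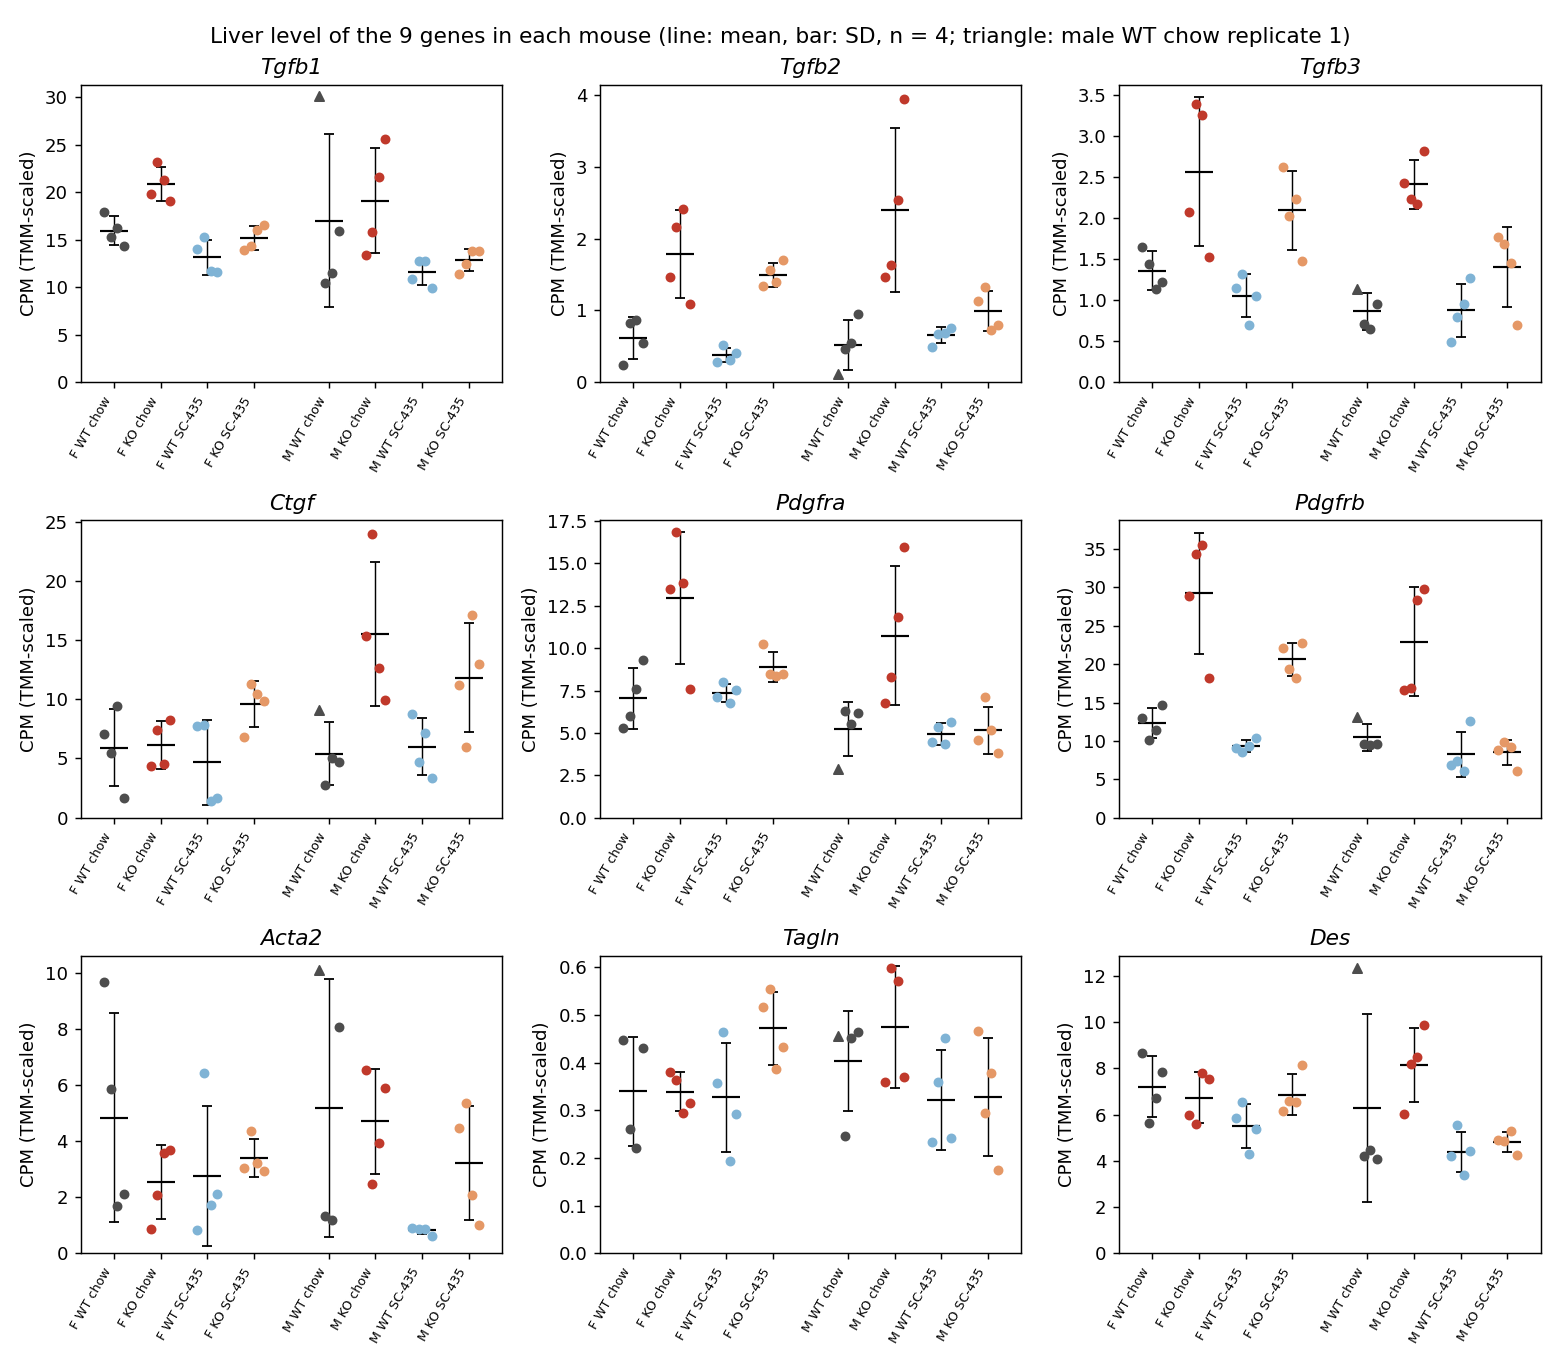
TMM-scaled CPM (y axis, from 0) of the 9 genes in each mouse, by sex (F or M), genotype and diet, with the group mean (line) and SD (bar, n = 4) and a triangle for male WT chow replicate 1. *Pdgfrb* is between 16.7 and 35.5 CPM in KO mice on chow and between 9.41 and 14.7 CPM in WT mice on chow, while *Acta2* spans 1.18 to 10.1 CPM within male WT mice on chow alone.

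*Acta2*, encoding smooth muscle α-actin, the usual tissue mark of activated stellate cells (ENSMUSG00000035783, chromosome 19, 34241090 to 34255336), was not higher in KO livers by test in either sex. Female WT mice on chow had 9.69, 5.88, 1.70 and 2.10 CPM and female KO mice on chow 0.876, 2.07, 3.58 and 3.67 CPM. The WT mice fell into a high and a low pair, and the groups overlapped (log2 −0.91 ± 0.58, adjusted p = 0.317). Male WT mice on chow had 10.1, 1.32, 1.18 and 8.09 CPM and male KO mice on chow 6.55, 2.46, 3.94 and 5.91 CPM. The range within WT contained every KO value, and the direction depended on the setting (log2 −0.09 ± 0.69 with all mice, 0.45 ± 0.69 without the library that stood apart). The coefficient of variation of *Acta2* was 77.3% in female and 89.2% in male WT mice on chow, against 16.0% and 16.9% for *Pdgfrb*.

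On SC-435 *Acta2* was at 3.05, 4.38, 3.22 and 2.95 CPM in female KO mice and at 4.47, 5.35, 2.07 and 1.002 CPM in male KO mice. Neither group differed by test from KO mice on chow (log2 0.41 ± 0.37 and −0.58 ± 0.49, adjusted p = 0.480 and 0.432). Female WT mice on SC-435 had 0.835, 6.44, 1.71 and 2.11 CPM, overlapping female WT mice on chow. Male WT mice on SC-435 were uniformly low, at 0.902, 0.862, 0.878 and 0.619 CPM, below all male WT mice on chow. That difference, 6.46-fold, had an unadjusted p of 0.0045 and an adjusted p of 0.414 in edgeR, and DESeq2 called it. The adjusted p was 0.129 to 0.969 over the fits that left out a mouse. *Acta2* closely resembles other actin genes, and how the counting treated reads shared between them was not given in the sources used here.

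Some smooth muscle genes varied with *Acta2* from mouse to mouse. After group means were removed, the log2 CPM of *Acta2* correlated with that of *Myh11*, the smooth muscle myosin heavy chain, at r = 0.778 over 32 mice and at r = 0.890 without the library that stood apart. The value with *Cnn1*, a calponin of smooth muscle, was 0.851, and that with the collagen gene *Col1a1* was 0.479. *Tagln*, also a smooth muscle gene, had few counts and correlated with *Acta2* at 0.304, with *Myh11* at 0.0986 and with *Cnn1* at 0.0698. *Cnn1* had between 0 and 53 counts per library and *Myh11* between 41 and 288. In the male WT mice on SC-435, where *Acta2* was lowest, *Cnn1* had 0 to 3 counts and *Myh11* 48 to 61. The summed level of the whole vascular smooth muscle list overlapped there, at 458.3 to 522.4 CPM against 261.3 to 510.4 CPM in male WT mice on chow. None of its 12 tested genes passed, where only 0.0394% of all genes did, so that count says little about the list. The vascular smooth muscle list had 1 of 14 genes higher and 1 lower between female KO and WT mice on chow, near the shares of all genes (9.83% higher and 5.05% lower). Its summed level was 445.9 to 544.8 CPM in female WT and 432.8 to 542.6 CPM in female KO mice on chow. The part of vessel content in the *Acta2* level was not tested.

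**Figure D4:**
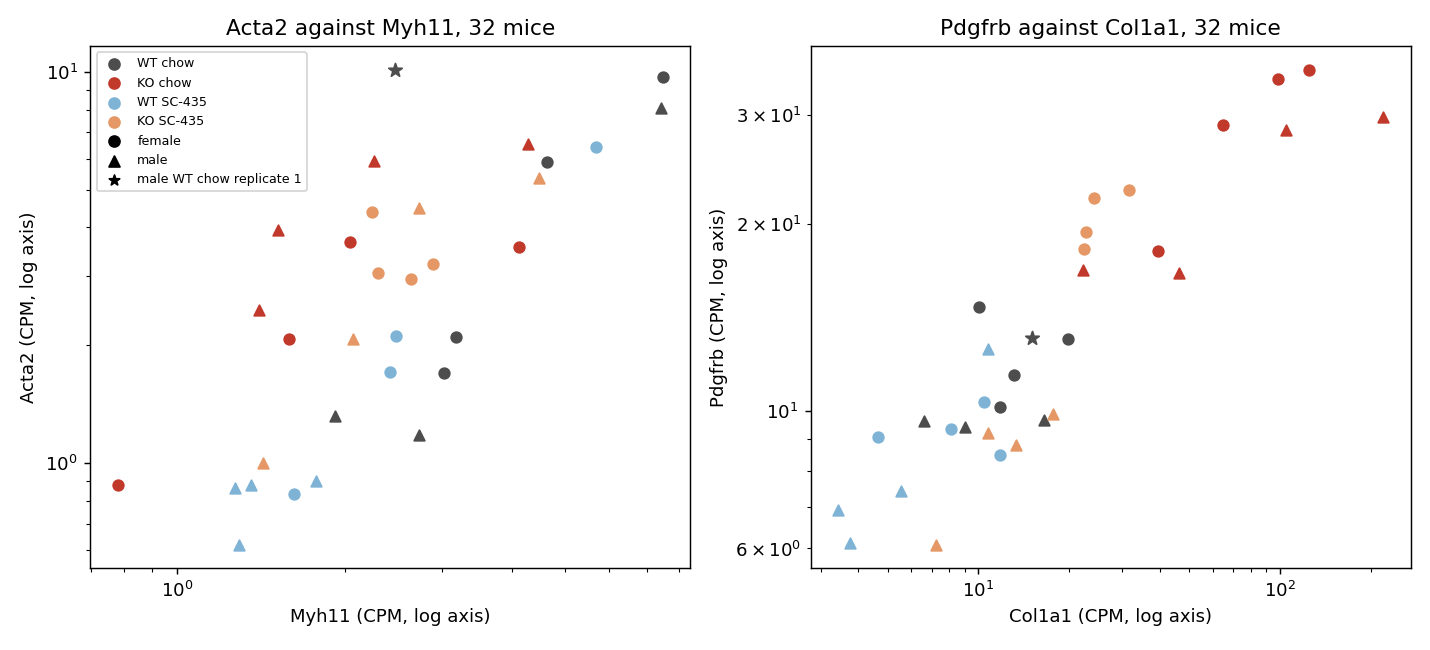
Levels in CPM (log axes) of *Acta2* against *Myh11* (left) and of *Pdgfrb* against *Col1a1* (right) in the 32 mice, colored by genotype and diet, with circles for females, triangles for males and a star for male WT chow replicate 1. *Acta2* tends to rise with *Myh11*. Its level is 0.876 to 6.55 CPM in KO mice on chow and 1.18 to 10.1 CPM in WT mice on chow. A difference by genotype in *Acta2* at a given *Myh11* level was not tested. *Pdgfrb* is at 16.7 to 35.5 CPM in KO mice on chow and at 9.41 to 14.7 CPM in WT mice on chow.

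*Tagln*, encoding the actin-binding protein transgelin (ENSMUSG00000032085, chromosome 9, 45929619 to 45936058), was near the limit of detection, with 7 to 29 counts per library, and passed in no comparison. Its group means lay between 0.322 CPM in male WT mice on SC-435 and 0.475 CPM in male KO mice on chow. Between female KO and WT mice on chow the log2 fold change was 0.03 ± 0.32 (adjusted p = 0.967). Of its annotated exonic bases, 62.4% lie opposite exons of *Gm48529*, and whether reads were counted by strand was not given in the sources used here, so reads of the pair may not be separated. The same holds for 23.2% of the bases of *Ctgf*, opposite *Gm15270*.

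*Des*, encoding the intermediate filament desmin (ENSMUSG00000026208, chromosome 1, 75360329 to 75368579), did not pass between genotypes in females, with 8.69, 5.65, 6.71 and 7.83 CPM in WT mice and 5.98, 5.60, 7.82 and 7.56 CPM in KO mice on chow (log2 −0.08 ± 0.17, adjusted p = 0.799). In male mice on chow it was at 12.4, 4.22, 4.48 and 4.10 CPM in WT and at 6.04, 8.21, 8.48 and 9.89 CPM in KO mice. All KO mice were above the WT mice apart from replicate 1, which was the highest of all. The log2 fold change was 0.43 ± 0.39 with that library (adjusted p = 0.632) and 0.98 ± 0.19 without it (adjusted p = 0.0259). SC-435 left male KO mice at 4.92, 4.87, 5.28 and 4.23 CPM, all below KO mice on chow, a 1.73-fold decrease (log2 −0.79 ± 0.17, adjusted p = 0.0158). Female KO mice on SC-435 had 6.15, 6.57, 6.56 and 8.15 CPM (log2 0.01 ± 0.15, adjusted p = 0.973). The difference between the sexes in the SC-435 effect was a log2 of 0.78 ± 0.22 (unadjusted p = 0.0026, adjusted p = 0.158).

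The dependence of the SC-435 effect on genotype was tested in each sex, in tests that called 2.64% of 16882 genes in females and 0.0906% of 16555 in males, and none of the 9 genes passed in either. In males 4 had an unadjusted p under 0.05 (*Acta2*, *Pdgfra*, *Pdgfrb* and *Tgfb2*) and in females 1 did (*Pdgfra*), against 13.3% and 19.9% of all genes. DESeq2 called none of the 9, and 2.15% and 7.14% of all genes in males and females. For male *Pdgfrb* the SC-435 effect in KO minus that in WT mice was a log2 of −1.13 ± 0.36 (adjusted p = 0.214).

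Ordered by group mean, *Pdgfrb* was highest in female KO mice on chow (29.2 ± 7.92 CPM, SD, n = 4), followed by male KO mice on chow (22.9 ± 7.11) and female KO mice on SC-435 (20.6 ± 2.13). These 3 groups overlapped in sequence, the third lay wholly above the fourth, female WT mice on chow (12.3 ± 1.97), and the remaining 4 groups overlapped down to male WT mice on SC-435 (8.26 ± 2.93). *Tgfb2* means were highest in male KO mice on chow (2.40 ± 1.14), female KO mice on chow (1.79 ± 0.612) and female KO mice on SC-435 (1.5 ± 0.168). Male KO mice on SC-435 came next (0.995 ± 0.279, highest 1.32 CPM). Male KO mice on chow (lowest 1.46 CPM) and female KO mice on SC-435 (lowest 1.34 CPM) lay wholly above that group. Female KO mice on chow (lowest 1.09 CPM) overlapped it. *Pdgfra* means were highest in the same 3 groups, with female WT mice on SC-435 next (7.36 ± 0.523). For *Pdgfra*, female KO mice on SC-435 (lowest 8.34 CPM) lay wholly above female WT mice on SC-435. Female KO mice on chow (lowest 7.56 CPM) and male KO mice on chow (lowest 6.76 CPM) overlapped them. All 3 groups overlapped female WT mice on chow (highest 9.31 CPM), so no break set them apart from the rest. For *Tgfb1*, *Tgfb3*, *Ctgf*, *Acta2*, *Tagln* and *Des* every pair of neighbouring groups overlapped. *Ctgf* alone was highest in both male KO groups (15.5 ± 6.08 on chow and 11.8 ± 4.61 on SC-435).

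The genes of the same pathways were counted from lists, to be read against the shares of all genes that passed. Some genes stand in more than 1 list, so the counts of different lists are not independent. Among them are *Tgif1*, *Skil* and *Smad7*, listed both with receptors and SMADs and with induced genes, and *Spp1*, listed both with matrix and with cholangiocyte genes. In female mice on chow those shares were 9.83% higher and 5.05% lower in KO, and in male mice on chow 0.933% higher. For SC-435 they were 9.23% lower and 8.56% higher in female KO and 8.36% lower and 8.8% higher in male KO mice. In female mice on chow, KO raised 8 of 14 genes for TGF-β activation and storage and lowered none, among them *Thbs1*, encoding the TGF-β activator thrombospondin 1 (log2 1.86 ± 0.35, adjusted p = 0.00758), and *Fbn1*, encoding fibrillin 1 (log2 1.37 ± 0.21, adjusted p = 0.00313). Of 16 receptors and SMADs, 4 rose and none fell, with *Tgfbr2*, the type II receptor, at log2 1.06 ± 0.13 (adjusted p = 0.00169) and *Tgfbr1*, the type I receptor, at 0.46 ± 0.14 (adjusted p = 0.0518). Of 17 genes induced by TGF-β or YAP, 2 rose, *Pmepa1* (log2 1.32 ± 0.27, adjusted p = 0.0113) and *Tgif1* (log2 0.46 ± 0.14, adjusted p = 0.0463), a count near the share of all genes. Of 4 PDGF ligands 3 rose, including *Pdgfb* (log2 1.03 ± 0.26, adjusted p = 0.0238), and none of 4 CCN genes did. The medians of these 5 lists were 0.54, 0.01, 0.23, 0.75 and −0.07 on the log2 scale.

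In male mice on chow 1 activation gene was higher in KO, *Thbs1* (log2 3.76 ± 0.44, adjusted p = 0.00949), as were 1 induced gene, *Ankrd1* (log2 2.81 ± 0.53, adjusted p = 0.0468), and 1 PDGF ligand, *Pdgfc* (log2 1.43 ± 0.26, adjusted p = 0.0426). Without the library that stood apart these counts were 3, 3 and 1.

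In male KO mice SC-435 lowered 6 of 14 activation genes, 4 of 16 receptors and SMADs, 7 of 17 induced genes and 3 of 4 PDGF ligands, raised 1 receptor or SMAD gene, and changed none of 4 CCN genes. *Thbs1* fell by 2.79 on the log2 scale (SE 0.36, adjusted p = 0.00223). In female KO mice the corresponding numbers lowered were 6, 6, 6 and 2, with 3 receptor or SMAD genes raised. *Tgfbr1* fell by 0.48 there (SE 0.11, adjusted p = 0.0148), whereas *Tgfbr2* stood at −0.05 ± 0.11 (adjusted p = 0.765).

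Collagen and matrix genes were counted in the same way. Of 18 genes of activated stellate cells and matrix, 15 were higher and none lower in female KO than WT mice on chow, with *Col1a1* at log2 2.60 ± 0.35 (adjusted p = 0.00216), and SC-435 lowered 12 of 18 in female and 16 of 18 in male KO mice. In male mice on chow KO raised 3 of 18, and 8 without the library that stood apart. Quiescent stellate cell genes did not move together: in female mice on chow 1 of 20 was higher and 4 lower in KO, the lower including *Hhip* (log2 −2.15 ± 0.29, adjusted p = 0.00219) and *Angptl6* (log2 −0.86 ± 0.13, adjusted p = 0.00292), and in male mice 1 was lower, *Pparg* (log2 −0.95 ± 0.17, adjusted p = 0.0427). With SC-435, 5 of the 20 were higher and 2 lower in female KO mice. In male KO mice 2 were higher and 4 lower, among them *Pparg*, a transcription factor of fat storage, which rose (log2 1.98 ± 0.12, adjusted p = 9.5e-05), and *Nes*, encoding nestin, which fell (log2 −0.75 ± 0.14, adjusted p = 0.0103).

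Markers of other cell types also changed in these comparisons. In female mice on chow KO raised 10 of 14 cholangiocyte, 12 of 15 macrophage and monocyte and 3 of 16 portal fibroblast and mesothelium genes, and lowered 1 of the last list. The summed cholangiocyte level was 132.6 to 183.9 CPM in WT and 271.6 to 505.1 CPM in KO mice, and the summed macrophage level 454.2 to 545.6 and 755.9 to 1142.2 CPM. In males on chow the cholangiocyte sum was 82.6 to 138.9 CPM in WT and 273.1 to 1328.8 CPM in KO mice, with 5 of 13 genes higher in KO, and 8 without the library that stood apart. The male macrophage sums overlapped, at 352.0 to 585.9 CPM in WT and 443.4 to 1711.4 CPM in KO mice on chow, with 2 of 15 genes higher in KO, and 3 without that library. SC-435 lowered 7 of 14 and 13 of 15 of them in female KO mice and 10 of 13 and 6 of 15 in male KO mice. Of 15 endothelial genes 1 was lower in female KO mice on chow, of 5 platelet genes none passed, and of 14 hepatocyte genes 1 was higher and 6 were lower, with summed hepatocyte levels of 120878 to 150070 CPM in WT and 84281 to 107044 CPM in KO mice. Within groups *Tgfb1* correlated with the macrophage gene *Adgre1* at r = 0.633 over 32 mice and 0.820 without the library that stood apart. The values with markers of other cells were 0.677 for *Thy1*, 0.6004 for *Krt19* and 0.588 for *Pecam1*, and 0.667, 0.300 and 0.557 without it. The part of these cells in the levels of the 9 genes was not tested.

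The genes whose log2 CPM moved most closely with each of the 9 within groups were found among 11734 coding genes whose mean count reached 50. For *Pdgfrb* they were *Mrc2*, *Cd63* and *Col6a1* (r = 0.881, 0.854 and 0.850 over 32 mice), and without the library that stood apart these were 0.882, 0.844 and 0.842. For *Pdgfra* they were *Bicc1*, *Lum* and *Abcc5* (r = 0.885, 0.848 and 0.835). Those close to *Acta2* included *Fbln1* and *Plin1* (r = 0.866 and 0.820). The values for *Des* depended on that library, with *Prr13* at r = 0.868 with it and 0.673 without it, and *Tgfb1* with *Parvb* went from 0.917 to 0.831. *Tgfb2* was closest to *Cbl* (0.883, and 0.83 without it), *Tgfb3* to *Pkp3* (0.686) and *Tagln*, with its few counts, to *Sde2* (0.629). *Pdgfra* and *Pdgfrb* correlated with each other at r = 0.546, and at 0.785 without that library.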

How the data were processed

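Poly(A) RNA of 32 mouse livers was sequenced by the authors. Per the submitters' processing notes, HISAT2 2.0.5, featureCounts 1.5.0-p3, DESeq2 1.20.0, GATK 4.1.1.0 and build mm10 were used, with strandedness not given in the sources used here. The deposited table holds whole-number read counts per gene, made by the authors without normalization, and these were analysed here. The FPKM values the authors deposited beside them, and the authors' columns of fold changes and p-values, were not used. All per-sample columns were matched to a sample, leaving 0 unmatched.

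The 9 genes and the 14 gene lists were chosen with earlier results of these data known. Beside the 9, genes were named from each list by the smallest adjusted p (up to 2 per list in the genotype comparison on chow and the SC-435 comparison in KO mice) or from a short written list of known markers. Some genes that this rule names are not reported here. Each comparison of 4 against 4 mice used edgeR 4.0.16 in R 4.3.3 (filterByExpr, TMM, glmQLFit, glmQLFTest), with Benjamini-Hochberg adjustment over all genes tested and a threshold of 0.05. SE is the log2 fold change divided by the square root of F. Interactions used 16 libraries. Levels are CPM with TMM over 32 libraries, and correlations used log2 CPM with a prior count of 2. The test was also run on simulated counts with a single fixed dispersion, changes only in well counted genes and no outlying library. That check does not cover scarce or variable genes such as *Tagln*, *Tgfb2* and *Acta2*. P-values measure the spread between mice.

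Depth was 36476021 to 44771350 counts per library. Within groups, no pair of libraries agreed within sampling noise (lowest chi-square per gene 20.3). Replicate numbers did not pair mice: 4 of 32 same-number correlations of deviations exceeded 0.1 (range −0.148 to 0.152). Alternatives were RLE factors, library size only, DESeq2 1.42.0, voom with quality weights in limma 3.58.1, other count filters, a replicate block, a single fit over 4 groups and each mouse left out. The correlations without male WT chow replicate 1 were chosen after seeing the data.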

Additional observations from a re-analysis of the deposited data

Results flagged for a closer look

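Of 72 sets of 4 mice, 1 for each of the 9 genes in each group, 5 held a mouse far from the other 3 by Dixon's test, where chance flags about 1 in 20. A pair of these came from male WT chow replicate 1, the library with the TMM factor of 0.639, in which *Des* was at 12.4 CPM and *Pdgfrb* at 13.1 CPM, both the highest of their group. *Tagln* was lowest in male WT chow replicate 2 at 0.247 CPM, *Acta2* lowest in male WT SC-435 replicate 4 at 0.619 CPM, and *Pdgfra* highest in female KO SC-435 replicate 1 at 10.2 CPM.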

How the results depend on the processing

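The number of the 9 genes that passed changed with the setting. Between female KO and WT mice on chow it was 5, and 1 to 5 with 1 mouse left out, falling to 3 or fewer without any mouse other than KO chow replicate 4. For SC-435 in female KO mice it was 1, but 3 by library size only, 4 with DESeq2, 3 with voom, 2 with no filter on low counts, 2 with the 4 groups in a single fit and 1 to 4 with 1 mouse left out (4 without KO chow replicate 4). For SC-435 in WT mice it was 0, and 1 with DESeq2 in each sex. For female KO mice on SC-435 against WT mice on chow it was 2, 3 with DESeq2, 3 with voom and 1 to 3 with 1 mouse left out (1 without KO SC-435 replicate 2 or 3). The filter at a mean of 50 counts gave 1 there, with 7 of the 9 genes left to test. For genotype in males on chow it was 0, but 2 by library size only, 4 with DESeq2, 5 with voom, 5 in the single fit and 0 to 5 with 1 mouse left out, 5 only without WT chow replicate 1. For SC-435 in male KO mice it was 4, 6 with DESeq2, 5 by library size only, 2 in the single fit and 1 to 5 with 1 mouse left out (2 without KO chow replicate 3 or 4 or KO SC-435 replicate 1 or 3, and 1 without KO SC-435 replicate 4). For male KO mice on SC-435 against WT mice on chow it was 0, and 1 with voom or without WT chow replicate 1 (range 0 to 1). Interactions called 0, except 1 with voom for sex by genotype, 1 with DESeq2 for sex by SC-435 and 0 to 1 with 1 mouse left out for genotype by diet in females (1 without KO chow replicate 4). The share of all genes called moved with the setting too, as from 1.08% to 6.82% with DESeq2 for genotype in males on chow. Not every setting has its share of all genes given here, and counts without that share cannot be set against all genes. The cause of these changes was not tested.

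The replicate number pairs no mice here. As a replicate block it gave 2 genes between female KO and WT mice on chow, 2 for SC-435 in female KO mice and 1 for SC-435 in male KO mice, and the same-numbered mouse was the best match in 10 of 32 cases.

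Direction turned for log2 changes that had not passed. By library size only the log2 change of *Des* was 0.11 between female KO and WT and −0.14 for SC-435 in female KO (−0.00319 with the filter at 50 counts), that of *Acta2* between male KO and WT was 0.33, and that of *Pdgfra* between male KO on SC-435 and WT on chow was 0.015. With voom, *Acta2* was at 0.13 and *Des* at 0.014 between female KO on SC-435 and WT on chow, *Acta2* at 0.78, *Des* at 0.13 and *Tgfb1* at 0.058 for the male pair, *Acta2* at 1.10 between male KO and WT, and *Tagln* at 0.089 (female), *Des* at 0.029 and *Tgfb1* at 0.014 (male) for SC-435 in WT mice. With the block, *Acta2* was at 0.40 between male KO and WT and *Tgfb3* at −0.010 for SC-435 in male WT.

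With 1 mouse left out, the log2 change crossed 0 between female KO and WT for *Tagln* (−0.13 to 0.18), *Des* (−0.18 to 0.025) and *Ctgf* (−0.24 to 0.39), for SC-435 in female KO for *Des* (−0.082 to 0.094), and for SC-435 in female WT for *Tagln* (−0.26 to 0.13) and *Pdgfra* (−0.048 to 0.23). It did so between female KO on SC-435 and WT on chow for *Acta2* (−0.78 to 0.081) and *Des* (−0.16 to 0.036), and between male KO and WT for *Acta2* (−0.43 to 0.45). In male WT, SC-435 gave *Des* −0.70 to 0.038, *Pdgfra* −0.29 to 0.0072, *Tgfb2* −0.016 to 0.75, *Tgfb3* −0.21 to 0.20 and *Ctgf* −0.12 to 0.52. Between male KO on SC-435 and WT on chow the ranges were −0.56 to 0.17 for *Des*, −0.23 to 0.086 for *Pdgfra* and −0.59 to 0.022 for *Tgfb1*.

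Scaling by library size only moved the median log2 change of all genes from −0.02 to 0.17 between female KO and WT, from 0.04 to 0.29 in males, from −0.02 to −0.18 for SC-435 in female KO and from −0.03 to −0.23 in male KO. Genes higher and lower went from 1593 and 818 to 2727 and 275 in the first, from 148 and 24 to 141 and 6 in the second, from 1398 and 1508 to 826 and 3202 in the third and from 1407 and 1337 to 755 and 2320 in the fourth. With 4 mice a group and few reads, a change in *Tagln* or *Tgfb2* smaller than the spread between mice was not detectable.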
